A study of Mus musculus with 4 samples.

Results

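Connexins are the proteins that build gap junctions, and this account describes the transcripts of 8 of them, *Gja1*, *Gja4*, *Gja5*, *Gjb1*, *Gjb2*, *Gjb6*, *Gjc1* and *Gjc3*, in cochlear ducts of E14.5 mouse embryos with and without *Tbx2* in *Sox2*-expressing cells. The members were chosen by gene symbol. They are 8 of the 29924 gene names on the array and are measured by 10 of its 39429 probes, of which *Gja5* has 3 and each of the other connexins 1. Another 12 connexins are on the same array. Each of 4 two-colour Agilent arrays compared RNA of 1 pool of *Sox2-Tbx2LOF* cochlear ducts with RNA of 1 pool of control ducts. Mutant embryos had the genotype Sox2(creERT2);Tbx2(fl/fl), in which a tamoxifen-dependent Cre recombinase is produced from the *Sox2* locus and removes the *loxP*-flanked part of *Tbx2*. Control embryos are labelled Tbx2(fl/n.d.), with the second *Tbx2* allele not determined, and the methods describe them as lacking Cre. In the crosses given there both parents are Tbx2(fl/fl), and the dams carry the fluorescent Cre reporter R26(mTmG) on both alleles. Offspring of these crosses without Cre would thus have both *Tbx2* alleles floxed, and mutants and controls alike would carry the reporter. All embryos were of the NMRI strain, and the dams of both genotypes received 4 mg of tamoxifen at E12.5, so the drug and the floxed allele were shared by both groups whereas the Cre insertion at *Sox2* was present in the mutants only. Arrays 1 and 2 hold female pools, arrays 3 and 4 male pools, and in each sex the mutant RNA carried the red dye Cy5 on 1 array (1 and 3) and the green dye Cy3 on the other (2 and 4).

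Connexin subunits assemble into a hemichannel, and hemichannels of neighbouring cells dock to a channel that passes ions and small molecules. In the cochlea, *Gjb2* and *Gjb6* encode the main subunits of the gap junctions that couple supporting cells and other non-sensory epithelial cells, and mutations of either gene cause deafness. *Gja1* is widely expressed in epithelium and mesenchyme. *Gja4* and *Gja5* are connexins of the vessel wall and are used as arterial endothelial genes, *Gjc1* is found in smooth muscle and in early mesenchyme, and *Gjb1* and *Gjc3* are connexins of myelinating glia.

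Of the 8 connexins, *Gjb2* and *Gjb6* were lower in *Sox2-Tbx2LOF* ducts, with differences of -12.0% and -14.48%, and no connexin was higher. The other 6 did not pass the test, with estimates between -6.40% for *Gjc1* and 10.04% for *Gja4*. The test was limma's moderated test on the log2 ratios within the arrays, mutant over control, with a term for the dye and Benjamini-Hochberg adjustment over 21042 genes, and a gene passed where its adjusted p was below 0.05. The 2 lower connexins of 8 stand beside 2.92% of all tested genes that were lower and 2.26% that were higher, together 5.18%. At an unadjusted p below 0.05 the count was 4 of 8, with *Gja4* higher and *Gjc1* lower in addition, beside 20.2% of all genes. No connexin also reached a fold change of 1.5, as 0.442% of all genes did. Of the 8 estimates 6 lay below zero, beside 10169 of all 21042 genes. Of these 6 only *Gjb2* and *Gjb6* passed. The median log2 ratio of the 8 was -0.079, beside a median of 0.0024 over all genes. The tissue is bulk, so fewer cells of a type and less RNA per cell cannot be told apart.

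**Figure D1:**
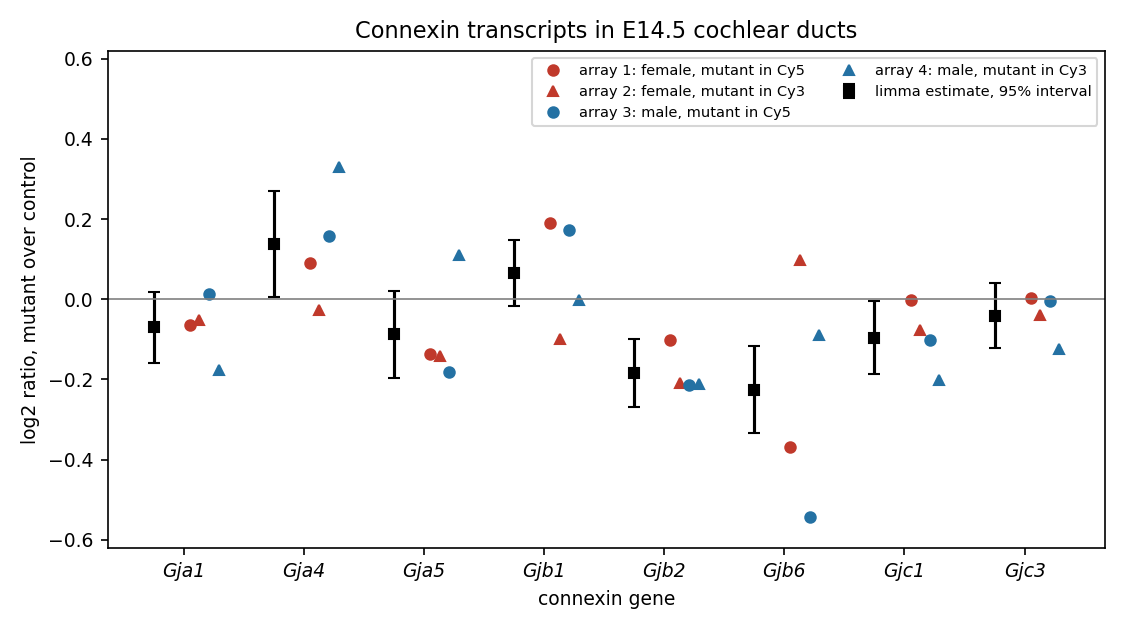
The vertical axis is the log2 ratio of mutant over control, the horizontal axis the connexin gene. Coloured points are single arrays (red female, blue male; circles with the mutant in Cy5, triangles with the mutant in Cy3) and black squares are limma estimates with 95% intervals. For *Gjb2* all 4 points lie below zero, from -0.21 to -0.10, whereas those of *Gjb6* separate by dye.

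The probes are 60 bases long. The first 30 bases are given for the probes of the 2 lower connexins and for the 3 probes of *Gja5*, since these differed in signal. No base is marked by capitals.
Gjb2: caagttgaaccattaccactatgccttatg
Gjb6: ttcattggacaatatacattgccgattgct
Gja5, bright probe: ccgacactggcactaagactctctgttctg
Gja5, dim tested probe: caaataacagtgggcagttgaacagcagcc
Gja5, probe not tested: tgtgtgctttatctgtaaatattgattgca
In the mm9 build used by the deposited files, the *Gjb2* probe lies at chr14:57717629-57717688 and the *Gjb6* probe at chr14:57742226-57742285, both on the minus strand. The *Gja5* probes lie at chr3:96857349-96857408 (bright), chr3:96836336-96836395 (dim) and chr3:96881280-96881339 (not tested), all on the plus strand. Whether a probe lies in coding sequence or in a UTR was not looked up, as no mm9 annotation was used. The longest run shared by any 2 of the 10 connexin probes was 10 bases, and the *Gjb2* and *Gjb6* probes shared at most 4 in a row.

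The labels were checked first on the targeted gene and the Cre insertion. The tamoxifen-binding part of CreERT2 comes from an oestrogen receptor, and *Esr1* is the mouse gene of that receptor. Of the 4 probes for *Esr1*, 1 was well above background in 4 of 4 mutant pools and in 0 of 4 control pools. The direction was the same on 4 of 4 arrays (limma, adjusted p = 6.0e-06). This probe met the filter on dim probes through the mutant pools alone, so its p-value adds little to these counts. The other 3 were above background in 0 of 8 pools. *Tbx2* itself had a log2 ratio of -0.12 ± 0.098 (SD, n = 4 arrays; limma, adjusted p = 0.124) and lay below zero on 4 of 4 arrays. Whether its probe lies in the removed part was not established here. *Sox2* had a log2 ratio of 0.012 (limma, adjusted p = 0.935). All 12 genes of a list of otic epithelium markers passed the filter on dim probes. The 8 probes that stand for the connexins were well above background in all 8 pools.

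*Gjb2* varied least between arrays among the 8 members, with an SD of its log2 ratio of 0.055. Levels are given as normalized log2 signal, which compares pools for 1 probe and not different genes. In the control pools of arrays 1 to 4 the *Gjb2* level was 15.97, 16.02, 16.00 and 16.04. In the mutant pools it was 15.86, 15.81, 15.79 and 15.82. All mutant pools were thus below all control pools, with no overlap. The share of all tested genes without such overlap was not counted, so how unusual this is was not established. On the 4 arrays the log2 ratios were -0.10, -0.21, -0.21 and -0.21, lower on 4 of 4 arrays in both sexes and both dye orientations. The estimate was -0.18 ± 0.055 (SD, n = 4; SE 0.036; limma, adjusted p = 0.0309), with a 95% interval of the difference from -17.0% to -6.71%. The dye coefficient of *Gjb2*, which is the part of the log2 ratio that follows Cy5 over Cy3, was 0.026, below the median size over all genes of 0.061. Even so, without the dye term *Gjb2* did not pass (limma, adjusted p = 0.159). Array 1 gave the smallest difference of the 4. Without array 1, 2, 3 or 4, the log2 ratio was -0.21, -0.19, -0.16 and -0.18, and the adjusted p was 0.0742, 0.0662, 0.158 and 0.0991, so the call needed all 4 arrays.

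*Gjb6* also fell, with more scatter between arrays. Its level in the control pools of arrays 1 to 4 was 12.41, 12.27, 12.55 and 12.52. In the mutant pools it was 12.04, 12.37, 12.01 and 12.44. The 2 groups overlapped, and the mutant pools labelled with Cy3, on arrays 2 and 4, were the higher ones. The log2 ratio within the arrays was -0.37, 0.098, -0.54 and -0.089, lower on 3 of 4 arrays. The estimate was -0.23 ± 0.29 (SD, n = 4; SE 0.047; limma, adjusted p = 0.0367), with a 95% interval from -20.7% to -7.79%. The call rests on the dye term. The dye coefficient of *Gjb6* was -0.23, larger in size than that of 96.6% of the genes, and after it was subtracted the ratios were -0.14, -0.13, -0.31 and -0.32. Without the dye term the same log2 ratio had an adjusted p of 0.533. Without array 1, 3 or 4 the adjusted p was 0.0882, 0.215 and 0.138, whereas without array 2 it was 0.0161, with log2 ratios between -0.27 and -0.18.

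**Figure D2:**
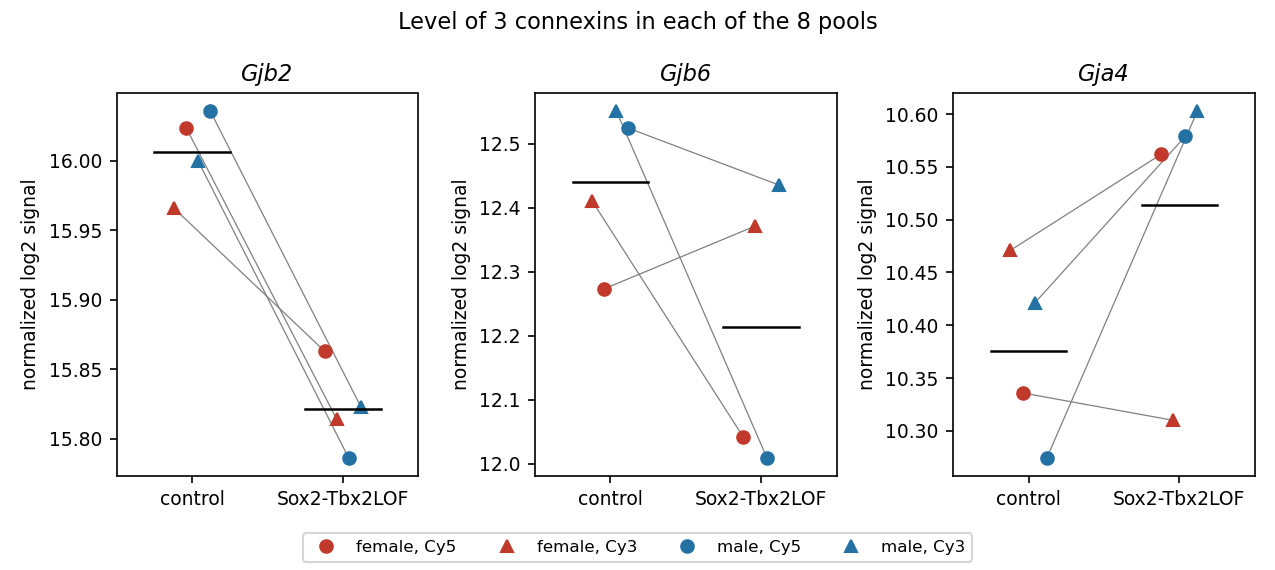
The vertical axes are normalized log2 signal, on a separate scale for each gene, and the horizontal axes the genotype. Points are pools (red female, blue male; circles Cy5, triangles Cy3), grey lines join the pools of 1 array and black bars are means of 4 pools. The *Gjb2* pools of the genotypes do not overlap, whereas those of *Gjb6* and *Gja4* do.

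*Gjb2* and *Gjb6* are neighbours in the genome, with their probes 24.6 kb apart on chromosome 14. *Gja3*, a connexin known from the lens, lies on the other side of *Gjb2* at 62.9 kb and had a log2 ratio of -0.0053 (limma, adjusted p = 0.953). Within 500 kb of the *Gjb2* probe 19 other genes were tested, and the single one that passed was *Gjb6*. The median log2 ratio of these neighbours was -0.012. This count, 1 of 19, is near the 5.18% of all genes that passed. The neighbours that passed around the other members were 1 of 21 around *Gja5* (higher), 1 of 33 around *Gjc1* (higher), 1 of 40 around *Gjc3* (lower), and none of 2, 10 and 18 around *Gja1*, *Gja4* and *Gjb1*.

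The 250 bases before the start sites of this pair are given because both genes were lower. They come from the RefSeq promoter table (GRCm38.p6, another build than the probe positions), run 5′ to 3′ on the gene's strand and end at the start site, and capitals mark GC boxes.
Gjb2, minus strand, chr14:57104703-57104952: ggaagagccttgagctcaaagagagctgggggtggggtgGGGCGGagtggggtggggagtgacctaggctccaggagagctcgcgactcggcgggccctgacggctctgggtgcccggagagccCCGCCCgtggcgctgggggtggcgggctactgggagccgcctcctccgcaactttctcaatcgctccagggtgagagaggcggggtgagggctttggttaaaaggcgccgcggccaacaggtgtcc
Gjb6, minus strand, chr14:57133612-57133861: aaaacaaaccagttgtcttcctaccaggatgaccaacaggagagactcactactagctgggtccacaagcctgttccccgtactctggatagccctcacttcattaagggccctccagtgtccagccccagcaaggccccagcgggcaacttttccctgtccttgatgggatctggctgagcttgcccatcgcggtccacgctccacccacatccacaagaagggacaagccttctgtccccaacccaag
The *Gjb2* window holds 69.2% G and C and 2 GC boxes (GGGCGG on either strand), written as its reverse complement where it is on the other strand, which start 211 and 126 bases before the start site. The *Gjb6* window holds 56.8% G and C and no GC box. The median over 32851 promoters was 52.4%, and 32.7% of them hold a GC box. T-box motifs were searched on both strands, the site AGGTGTGA, present in 1.12% of promoters, and its core GGTGTG, which overlaps it and is present in 16.3%. The TATA box (TATAAA) is present in 12.4%. None of these 3 is in either window, which says only that the letters are not there. An entry was found for 7 of the 8 connexins.

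*Gja1* did not pass. Its level was 10.85, 10.67, 10.695 and 10.698 in the control pools of arrays 1 to 4 and 10.79, 10.62, 10.71 and 10.52 in the mutant pools. The groups overlapped, with the highest control pool and the highest mutant pool both on array 1. The log2 ratio was -0.070 ± 0.078 (SD, n = 4; limma, adjusted p = 0.360), and its 95% interval spanned -10.4% to 1.31%. Without array 4 the log2 ratio was -0.039.

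The vascular connexins had estimates of opposite sign, and neither passed. The *Gja4* level was 10.47, 10.34, 10.42 and 10.27 in the controls and 10.56, 10.31, 10.58 and 10.60 in the mutants. Of the mutant pools 3 lay above every control pool, while the mutant pool of array 2 lay within the control range. The log2 ratio was 0.14 ± 0.15 (SD, n = 4; limma, adjusted p = 0.228), positive on 3 of 4 arrays. Without array 2 it was 0.23 with an adjusted p of 0.0258, and without array 4 it was 0.049 with an adjusted p of 0.811, so these 2 arrays decided its place. The bright *Gja5* probe varied most between pools, at 9.79, 9.11, 9.50 and 9.28 in the controls and 9.65, 8.97, 9.32 and 9.39 in the mutants. The pools of 1 array lay close to each other, and the log2 ratio was -0.088 ± 0.13 (SD, n = 4; limma, adjusted p = 0.346). Array 4 alone gave a positive ratio, 0.11, and without it the log2 ratio was -0.15, whereas without array 2 it was -0.025. As a mean over the tested probes it was -0.048. The dim *Gja5* probe was above background in 2 mutant and 2 control pools and had a log2 ratio of -0.0078 (adjusted p = 0.946), and the untested one was above background in 2 mutant and 1 control pools.

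Endothelial transcripts were given beside these genes for comparison. Of 10 endothelial markers 3 were higher and none lower, with a median log2 ratio of 0.094. They were *Cldn5*, a tight junction protein of vessels, with 0.21 ± 0.035 (SE; limma, adjusted p = 0.0167), *Egfl7*, a secreted vascular factor, with 0.17 (0.0373), and *Esam*, an adhesion molecule, with 0.16 (0.0473). The summed normalized signal of this list ranged from 114900 to 121200 in the mutant pools and from 104270 to 112910 in the control pools. Such a sum, here and below, adds unlogged signals of different probes. It therefore follows the brightest probes and can differ from the median ratio of a list. None of 6 arterial markers passed, with a median of 0.0052, and their summed signal ranged from 119830 to 126080 in the mutants and from 117980 to 128700 in the controls. The part of these cells in the values of *Gja4* and *Gja5* was not tested.

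*Gjc1* lay below zero on 4 of 4 arrays without passing. Its level was 14.56, 14.40, 14.48 and 14.58 in the controls and 14.56, 14.32, 14.38 and 14.38 in the mutants. The groups overlapped through array 1, on which the ratio was close to zero. The log2 ratio was -0.095 ± 0.082 (SD, n = 4; limma, adjusted p = 0.225), with an interval from -12.1% to -0.323%. Of 10 markers of periotic mesenchyme *Col1a1*, a fibrillar collagen chain, was higher at 0.27 (limma, adjusted p = 0.00448), and none was lower. The summed signal of that list ranged from 288770 to 313550 in the mutants and from 274270 to 294050 in the controls.

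The glial connexins did not pass either. *Gjb1* had levels of 9.09, 9.43, 9.20 and 9.42 in the controls and 9.28, 9.34, 9.37 and 9.42 in the mutants. The mutant was higher on arrays 1 and 3 and lower on arrays 2 and 4, a split that followed the dye. The log2 ratio was 0.065 ± 0.14 (SD, n = 4; limma, adjusted p = 0.360), and it was 0.041 without array 4 and 0.11 in the authors' series table. *Gjc3* had levels of 6.993, 6.998, 7.03 and 7.04 in the controls and 6.99, 6.96, 7.02 and 6.91 in the mutants. Its probe was dim, so a small ratio says little about this gene. In the mutant pool of array 1 its raw Cy5 signal was 168, beside a median Cy5 background of 95 on that array. Its log2 ratio was -0.041 ± 0.058 (SD, n = 4; limma, adjusted p = 0.580), and it turned to 0.0064 when the arrays were centred on the median in place of loess. It was -0.020 without array 4, -0.062 without array 2, -0.066 with an offset of 10, -0.10 in the authors' series table and -0.11 with Agilent's processed signals.

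Genes of Schwann cell precursors, the cells from which myelinating glia arise, had larger negative ratios. Of 10 such markers 5 were lower and 1 was higher, with a median log2 ratio of -0.34. *Foxd3*, a neural crest transcription factor, had a log2 ratio of -1.18 ± 0.057 (SE; limma, adjusted p = 6.7e-05), *Fabp7*, a fatty acid binding protein, -1.03 (5.0e-05) and *Ngfr*, the low-affinity neurotrophin receptor, -0.74 (0.000122). The summed signal of this list ranged from 185440 to 216130 in the mutants and from 192310 to 223710 in the controls. Of 9 tested neuronal markers 6 were lower and 1 higher, led by *Nefl* at -0.48 (limma, adjusted p = 0.000310), *Nefm* at -0.72 (0.000397), both neurofilaments, and *Tubb3*, a neuronal tubulin, at -0.39 (0.000896). Their summed signal ranged from 55403 to 60801 in the mutants and from 56493 to 58984 in the controls. The methods state that the spiral ganglion was removed from the ducts. Most markers of these lists that passed moved in the same direction as *Gjb2* and *Gjb6*, and their part in the connexin values was not tested. The paper places *Fabp7* with lowered genes known from the medial side of the sensory epithelium, and it uses NGFR to mark pillar cells. Whether the falls of *Fabp7* and *Ngfr* lay in glia or in this epithelium was not tested.

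None of 7 melanocyte, 8 erythrocyte and 9 macrophage markers passed, with median log2 ratios of 0.037, 0.14 and 0.044. All 8 erythrocyte estimates lay above zero. For most of these genes the ratio was higher on the arrays where the mutant carried Cy5, and for some it was negative on the others. Of 12 otic epithelial markers *Gata3*, a transcription factor of the otic placode and prosensory cells, was higher at 0.34 (limma, adjusted p = 0.00929) and *Jag1*, a Notch ligand of prosensory cells, was lower at -0.19 (0.0278). The summed signal of the epithelial list ranged from 622170 to 675780 in the mutants and from 586600 to 641280 in the controls.

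The rest of the gap junction family gave no call. Of the 12 other connexins 3 passed the filter on dim probes, among them *Gja3*, and none of these passed the test. The other 9 were not tested. Of the 3 pannexins, which form channels in single membranes, 2 were tested and neither passed. Among 11 proteins that bind connexins or anchor junctions, *Cdh2*, the adherens junction protein N-cadherin, was lower at -0.17 ± 0.038 (SE; limma, adjusted p = 0.0431), and none was higher. The paper uses CDH2 protein as a marker of the inner, medial compartment of the sensory epithelium. It reports that this signal was lost there in E14.5 mutants. Whether the fall of the *Cdh2* transcript lay in that compartment was not tested.

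Of 14 tested genes of cochlear ion transport, the machinery that works with gap junctions in potassium circulation, 1 was lower and 1 higher, with a median of 0.019. *Kcnj10*, a potassium channel gene of glia, supporting cells and the stria, had a log2 ratio of -0.38 ± 0.046 (SE; limma, adjusted p = 0.00349), lower on 4 of 4 arrays. Its ratios on arrays 1 to 4 were -0.48, -0.23, -0.70 and -0.12 (SD 0.26), with the larger falls where the mutant carried Cy5. *Aqp4*, a water channel of supporting cells, had 0.23 ± 0.036 (SE; limma, adjusted p = 0.0130), higher on 4 of 4 arrays.

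**Figure D3:**
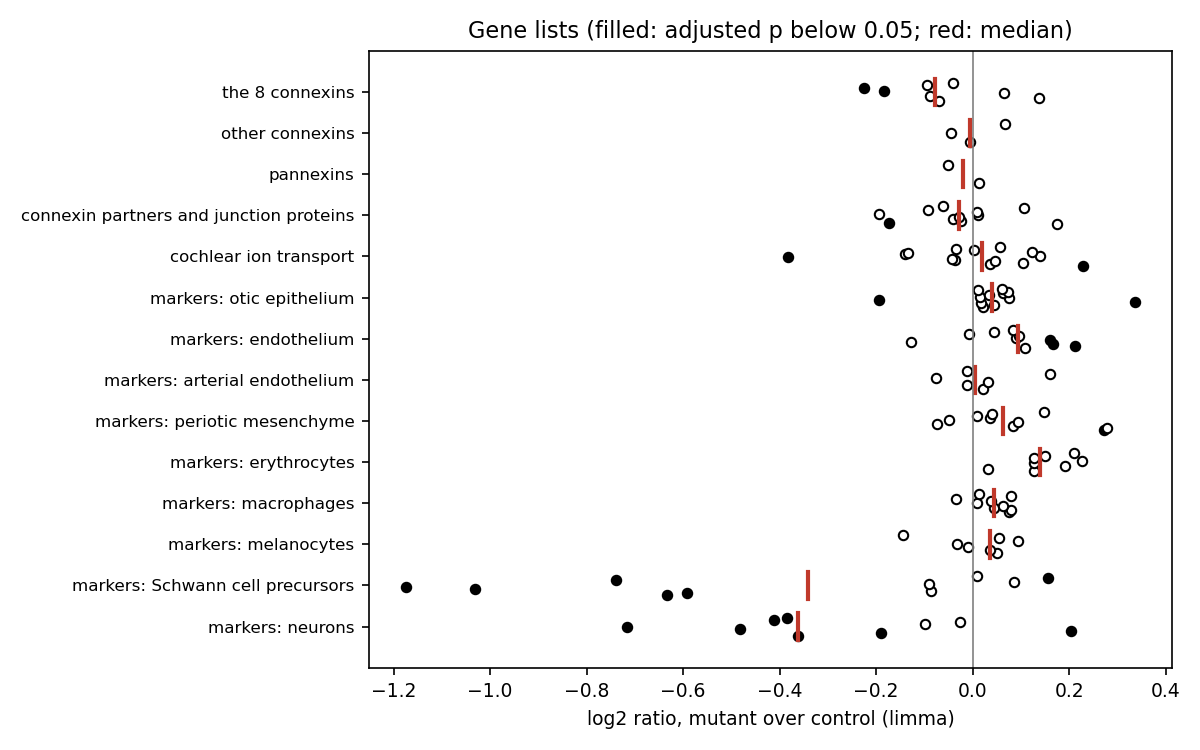
The horizontal axis is the limma log2 ratio of mutant over control, and each row is a gene list. Each point is a gene (filled where the adjusted p was below 0.05) and red bars are medians. Schwann cell precursor and neuron markers reach furthest to the left, whereas the connexins lie between -0.23 and 0.14.

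Male and female ducts were compared by the difference between the ratios of the 2 male and the 2 female arrays. For *Gjb6* the dye-balanced log2 ratio was -0.14 in females and -0.32 in males, and for *Gja4* it was 0.033 and 0.24. *Gjb2* had -0.16 in females and -0.21 in males. None of the 8 differences passed limma's interaction test (adjusted p = 1.00 for each), and 0 of 8 had an unadjusted p below 0.05. With 2 arrays per sex and 1 residual degree of freedom, this test could find only large differences. The unadjusted p was 0.0546 for *Gjb6* and 0.0533 for *Gja4*.

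Likeness was measured over the 8 pools after the mean of the pools of each dye was subtracted, as a description in which pools share arrays and genotype. *Gjb2* and *Gjb6* had r = 0.81 with each other. The genes most like *Gjb2* were *Cenpl* (r = 0.992), *Ier5* (0.989) and *Cdk15* (0.988), with log2 ratios of -0.20, -0.24 and -0.66. Those most like *Gjb6* were *Cpsf4l* (0.994), the array entry NAP030492-1 (0.988) and *BC048507* (0.988). The lowest value among members was that of *Gja1* and *Gjb1* (r = -0.98), although neither passed between the genotypes.

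The place of *Gjb2* and *Gjb6* relative to the threshold changed with the processing. Each has 1 probe, and dyes and sexes were balanced. Changes of the filter, probe rule, dye term, sex term or separate channels therefore could not move their estimates, which stayed at -0.18 and -0.23. Only the signal, offset, centring, authors' table and left-out arrays could move them, and there the estimates stayed below zero. In the main analysis and 8 of 16 alternatives *Gjb2* passed, and the same number held for *Gjb6*. The log2 ratio ranged from -0.22 to -0.16 for *Gjb2* and from -0.27 to -0.18 for *Gjb6*, and the adjusted p from 0.00254 to 0.159 and from 0.00770 to 0.533. Neither passed with Agilent's processed signals, where the adjusted p was 0.0730 and 0.101, nor in the unpaired comparison of the separate channels, where it was 0.0860 and 0.433.

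**Figure D4:**
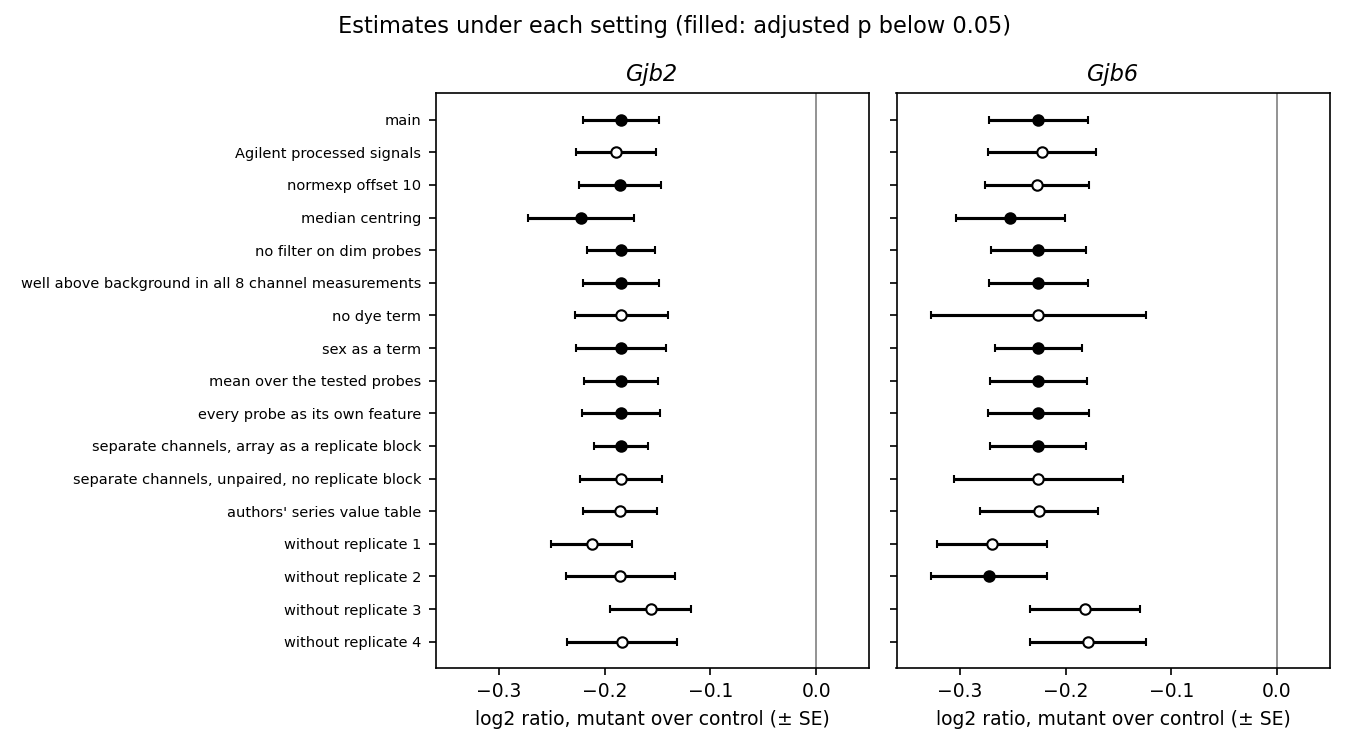
The horizontal axes are the log2 ratio of mutant over control with its SE, and each row is a setting of the processing, with the reported one on top. Filled points have an adjusted p below 0.05. All estimates lie below zero, and the points that miss the threshold sit close to those that pass. In settings that could not move the estimate, only the SE and the filling can differ.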

How the data were processed

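Cochlear ducts were profiled at E14.5 on 4 two-colour Agilent arrays, all on 1 slide with 1 scan time. The authors deposited the Feature Extraction (10.7.3.1) output, in which intensity values are the mean brightness of a spot and the median of its background in both dyes, not normalized, beside Agilent's processed intensity. The authors also deposited a series table with 1 score for every probe on each array, which reads as a fold change with a sign and served as an alternative. Its log2 values had a median of 0 on every array and correlated with the loess ratios across genes (r between 0.916 and 0.943). Its normalization is not given in the sources used here. The per-array log10 ratios were not used. Probe names, symbols and mm9 positions came from the files, and groups, sexes and dyes from the labels.

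Background was corrected with limma 3.58.1 in R 4.3.3 (normexp, offset 50), and ratios were normalized by loess. The unflagged of 4 spots per probe were averaged. The 27963 probes with at least 4 of 8 channel measurements well above background were tested, and the brightest tested probe stood for a gene (21042 genes). Array numbers pair the pools, because both pools of an array were hybridised together. lmFit and eBayes were run with a dye intercept on 2 residual and 5.65 prior degrees of freedom, with Benjamini-Hochberg adjustment. Levels are the separate channels after loess and Aquantile. The pools are described as independent, and 4 arrays limit the precision. No probe of a gene was saturated, and 69.2% to 72.0% of probes were above background in a channel. Scripts were tested on simulated data.

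Alternatives covered the signal, offset, centring, filter, dye term, sex, probe rule, separate channels with and without the array block, the authors' table and each array left out. SAM, named in the methods, was not run, and the unpaired comparison of channels stands nearest to it. The connexins and gene lists were chosen with earlier results of these data known, and marker lists come from general knowledge. Genes named were the 8 connexins, *Tbx2*, *Sox2* and *Esr1*, any other connexin or pannexin that passed, the 3 genes most like each passing connexin, and at most 3 passing genes of each list by smallest adjusted p. *Gja3* was named after its values were seen. Some genes of the lists are not reported here by name.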

Additional observations from a re-analysis of the deposited data

Results flagged for a closer look

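In 4 groups of 4 values, 1 value stood apart from the other 3 by Dixon's 95% criterion. With 24 groups of 4 examined, chance gives about 1 in 20. The *Gjb2* log2 ratio of array 1 was -0.10, nearer to zero than those of the other arrays (ratio of gap to range 0.958). The *Gja5* log2 ratio of array 4 was 0.11, the one positive value (0.845). The *Gja4* level in the mutant pool of array 2 was 10.31, below the other mutant pools (0.861). The *Gja1* level in the control pool of array 1 was 10.85, above the other control pools (0.848).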

How the results depend on the processing

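The number of genes that passed, 1091 in the main analysis, was 616 with Agilent's processed signals, 264 without the dye term, 1982 in the separate channels with the array as a replicate block, 217 in the unpaired channels without that block and 414 with the authors' table. With one array left out it ranged from 411 to 1278. The number of connexins that passed, 2 in the main analysis, became 1 (*Gjb2*) with an offset of 10 and 0 with the processed signals, without the dye term, in the unpaired channels and with the authors' table. It was 0 without array 1, 3 or 4 and 2 without array 2, where *Gjb6* was lower and *Gja4* higher, a range of 0 to 2. The array block left the connexins that passed at 2. *Gjc3* turned from -0.041 to 0.0064 under median centring, and neither value passed. The other 7 connexins kept their direction in 16 of 16 alternatives. Settings of the filter, dye term, sex term and separate channels could not change a direction. The probe rule could do so only for *Gja5*, which has several probes. The number of connexins with a sex difference at an adjusted p below 0.05 was 0 in every setting run. Under median centring 1 connexin had an unadjusted p below 0.05 in limma's interaction test. The median log2 ratio of all genes lay between -0.0065 and 0.0074 over the settings. The cause of these changes was not tested, except that leaving out an array takes away 1 of 4 arrays. The precision is limited by 4 arrays and 2 residual degrees of freedom.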
